A study of Mus musculus with 13 samples.

Results

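The genes described here are those whose symbols begin with Nduf: nuclear genes for subunits of mitochondrial complex I, the assembly factors named Ndufaf, and Ndufa4 and Ndufa4l2, which keep an Nduf symbol but belong to complex IV. They were taken by symbol from the smaller of both deposited tables, whose 15645 genes average 10 or more counts per library and in which 46 rows carry such a symbol. The row Ndufb1-ps was left out because of its pseudogene-style name, and the remaining 45 genes, all protein-coding, are the members. The counts come from nuclei sorted for Pcm1, a centriolar satellite protein used as a mark of cardiomyocyte nuclei, out of the ventricles of C57BL/6J mice, a common inbred strain. Pups of both sexes were given adeno-associated virus of serotype 6 into the peritoneum on postnatal day 1, and hearts were taken on postnatal day 56. The virus was either AAV_Con, a vector with no insert, or AAV_PGR, a vector with the human progesterone receptor, which is a hormone-activated transcription factor. There were 4 libraries of females given AAV_Con (Con_F), 3 of males given AAV_Con (Con_M), 3 of females given AAV_PGR (PGR_F, with replicate numbers 1, 2 and 4) and 3 of males given AAV_PGR (PGR_M). Every group therefore carried virus, and no group without virus was analysed here. Each library pooled 3 to 6 ventricles, so the spread between libraries is a spread between pools. The promoter that drives the insert and the share of nuclei that took up the vector are not given in the sources used here.

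Complex I is the entry point of the respiratory chain: it oxidises NADH, passes the electrons through a row of iron-sulfur clusters to ubiquinone, and pumps protons across the inner mitochondrial membrane. The enzyme is L-shaped, with an N module that binds NADH, a Q module that reduces ubiquinone, and a membrane arm with a proximal and a distal part. Its central membrane subunits are made inside mitochondria from mitochondrial DNA, and the other subunits are nuclear-encoded and joined in steps that need assembly factors. The heart is among the tissues richest in mitochondria and draws most of its energy from this chain.

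Total counts were 31.8 to 86.3 M per library, and the members together took 0.147% to 0.173% of them. Mitochondrially encoded genes took 0.233% to 0.481%. The 10 cardiomyocyte markers summed to 80958 to 100117 CPM (counts per 1 M counts, scaled by library), against 25.4 to 100.6 CPM for 8 fibroblast markers, 27.3 to 58.9 CPM for 8 endothelial markers and 7.78 to 17.4 CPM for 8 macrophage markers, of which Fcgr1 was too low to test. Y-linked genes separated the sexes, and in the library Con_F 4 their summed level was 1.01% of the male mean, against at most 0.112% in the other 6 female libraries. Con_F 4 was kept, and the main counts and medians that compare Con_F with another group are also given without it. The human insert was not measured here, and mouse Pgr had 0 to 1 counts in control-vector libraries and 0 to 8 in PGR-vector libraries.

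All 45 members passed the filter on low counts. The interval counted for a gene runs from its first to its last base and holds introns, and exons made up 1.91% (Ndufaf2) to 95.6% (Ndufaf3) of a member's interval. Intervals ranged from 1778 bases in Ndufaf8 to 155909 bases in Ndufaf2, so levels are compared between genes only per kb of interval. Other genes annotated on the same strand covered 62.9% of Ndufb9, 62.0% of Ndufb8 and 37.2% of Ndufb2, and the reads of these members are less certain. Ndufa13, a proximal-arm subunit that is not among the members, lies wholly inside Yjefn3 on the same strand and had 0 counts in every library, which does not measure its expression.

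Per kb, the member with the highest level was Ndufv1, the subunit that binds NADH and its flavin, at a mean of 12.5 CPM per kb over 13 libraries. It was followed by Ndufb10, a distal-arm subunit, at 9.81 CPM per kb and by Ndufs3, a core Q-module subunit, at 6.84 CPM per kb. The lowest were the assembly factors Ndufaf7 at 0.466 and Ndufaf2 at 0.272 CPM per kb, and Ndufa4l2, a relative of the complex IV protein Ndufa4, at 0.0979 CPM per kb. The 8 assembly factors lay between 0.272 and 3.42 CPM per kb, and the highest of them was Ndufaf4. Outside the assembly factors, the members of complex I itself ranged from 0.638 CPM per kb in Ndufa1 to the 12.5 CPM per kb of Ndufv1.

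**Figure D1:**
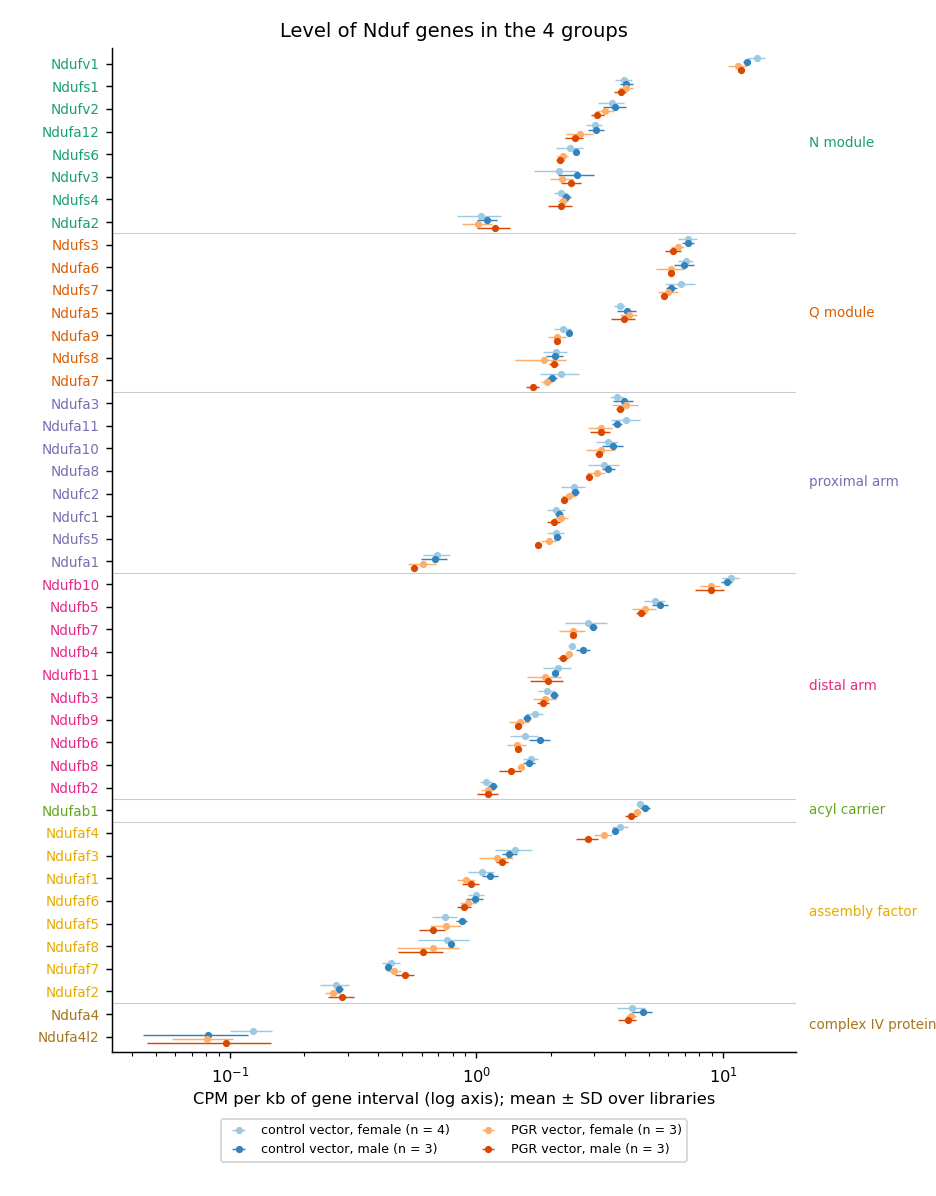
Level of Nduf genes in CPM per kb of gene interval (log axis), one row per gene, grouped by role in the enzyme; points are group means and bars are SD over the 3 or 4 libraries of each group. Ndufv1 stands at the top with 12.5 CPM per kb on average, and most assembly factors lie low. The 4 groups of a gene differ little beside the range between genes. The bars of Con_M and PGR_M are nonetheless apart in several genes, among them Ndufb4 and Ndufs5.

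Under the PGR vector most members had lower levels than under the control vector, by small amounts. Averaged over the sexes, 40 of 45 members had a log2 fold change (PGR vector over control vector) below 0, against 49% of the 16125 genes tested, and the median was -0.16 against 0.00 for all genes. In females 36 of 45 were below 0 (49.3% of all genes), with a median of -0.10, and in males 41 of 45 (49.9% of all genes), with a median of -0.19. None of these changes passed the threshold of an adjusted p under 0.05 in the edgeR quasi-likelihood test: 0 of 45 members passed in females, where 0% of all genes did, 0 in males, where 0% did, and 0 in the averaged comparison, where 0.0062% did. At an unadjusted p under 0.05, 6 members were lower and 0 higher in females (5.15% and 5.8% of all genes), 14 lower and 0 higher in males (3.94% and 3.53%), and 22 lower and 0 higher in the average (7.45% and 7.37%). DESeq2 called 1 member in the average, Ndufaf4, which was lower (2.51% of genes called, 1.14% lower), 0 in females (0.595%) and 0 in males (0.187%). All DESeq2 shares are of the genes with a DESeq2 adjusted p, here 13298, 13610 and 15485 in that order. In each of these comparisons 1 member had no DESeq2 adjusted p. With limma-voom 0 members were called in the average (0.0124%), in females (0%) or in males (0%). Without Con_F 4, edgeR called 2 members lower in the average, Ndufaf4 and Ndufa7, and it then called 2.09% of 16189 genes in either direction and 0.988% lower. In that fit 36 members were below 0 in females (49% of all genes) with a median of -0.16 in place of -0.10, and the averaged median was -0.18. At an unadjusted p under 0.05, 15 members instead of 6 were lower in females (7.22% of all genes). That count in females was 10 without PGR_F 2 (4.98% of all genes), 3 without Con_F 1 (3.24%) and 3 without PGR_F 1 (3.36%). In males it was 5 instead of 14 without Con_M 1 (2.88%), without Con_M 2 (2.02%) or without PGR_M 2 (1.79%), and 9 without PGR_M 1 (3.98%). In the average, 22 with all libraries, it ran from 16 without Con_M 2 (5.54%) or PGR_F 1 (6.58%) to 28 without Con_F 4 (9.51%). In bulk nuclei, a lower level in each nucleus and a smaller share of nuclei with that level cannot be told apart.

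By library, the median over members of the log2 deviation from each gene's mean was 0.18, 0.08, 0.06 and -0.06 in Con_F 1 to 4, 0.10, 0.11 and 0.04 in Con_M 1 to 3, -0.15, 0.04 and -0.09 in PGR_F 1, 2 and 4, and -0.12, -0.12 and -0.03 in PGR_M 1 to 3. The male groups did not overlap in this median. The female groups did, since Con_F 4 was low and PGR_F 2 was high for its group. For all genes tested, the same median stayed between -0.01 and 0.02 in every library. Among single members, 23 were lower in all 3 PGR_M libraries than in any Con_M library (8.48% of all genes) and 1, Ndufaf7, was higher (7.2%), while in females 3 were lower (4.07%) and 0 higher (4.17%). Over both sexes, 0 members were lower in all 6 PGR-vector libraries than in all 7 control-vector libraries (0.36%) and 0 were higher (0.26%). Without Con_F 4, 11 members were lower in all PGR_F libraries than in the other 3 Con_F libraries (8.97% of all genes) and 0 higher (9.38%). Without it 6 were lower in all PGR-vector than in all other control-vector libraries (0.98%), among them Ndufaf1, Ndufaf4, Ndufb6, Ndufs5 and Ndufb8, and 0 were higher (0.738%). With all libraries, apart within each sex at once were 0 in the lower direction (0.682%) and 0 in the higher (0.639%). The male groups hold 3 and 3 libraries and the female groups 3 and 4, and the difference between the sexes in these counts was not tested. As a share of all counts, the members together took 0.147% to 0.155% in PGR_M and 0.156% to 0.171% in Con_M, which do not overlap, and 0.154% to 0.173% in PGR_F and 0.155% to 0.173% in Con_F, which do.

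In the N module, 7 of 8 members had averaged log2 fold changes below 0, with a median of -0.09. Ndufa12, an accessory subunit related to the assembly factor Ndufaf2, was counted at 74.2, 71.3, 65.6 and 62.7 CPM in Con_F, 55.9, 68.5 and 55.1 CPM in PGR_F, 73.2, 71.7 and 63.96 CPM in Con_M and 52.8, 55.6 and 61.9 CPM in PGR_M. Both PGR-vector groups were low except for PGR_F 2, which lay inside the control range, and the male groups did not overlap. Its averaged log2 fold change was -0.24 (SE 0.07, edgeR quasi-likelihood adjusted p = 0.142), with -0.19 (SE 0.09) in females and -0.29 (SE 0.10) in males. Ndufv1 was counted at 82.6, 70.95, 72.4 and 70.5 CPM in Con_F, 56.2, 66.9 and 63.9 CPM in PGR_F, 65.4, 67.7 and 69.6 CPM in Con_M and 62.96, 63.1 and 65.8 CPM in PGR_M. All 3 PGR_F libraries were below all 4 Con_F libraries, of which Con_F 1 was the highest, while the male groups overlapped. The log2 fold change of Ndufv1 was -0.25 (SE 0.08, edgeR quasi-likelihood adjusted p = 0.326) in females and -0.08 (SE 0.08) in males. The other core subunits of the module gave averaged values of -0.03 (SE 0.06) for Ndufs1, the large iron-sulfur subunit, and -0.17 (SE 0.08) for Ndufv2, a smaller iron-sulfur subunit. Ndufs4, an accessory subunit whose loss in people and mice causes a severe encephalopathy, was near 0 at -0.02 (SE 0.06), and so was Ndufa2 at 0.03 (SE 0.13).

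Of the 8 Q-module members, 7 were below 0 in the average, and the median was -0.15. Ndufs3 was counted at 81.1, 73.4, 73.3 and 65.3 CPM in Con_F, 65.3, 71.3 and 63.4 CPM in PGR_F, 75.2, 76.98 and 68.8 CPM in Con_M and 61.2, 61.3 and 69.3 CPM in PGR_M. The PGR_M libraries 1 and 2 and PGR_F 4 were the 3 lowest values of Ndufs3, and the groups overlapped in both sexes. Its averaged log2 fold change was -0.17 (SE 0.06). Ndufa7, an accessory subunit, was counted at 32.9, 32.9, 33.3 and 22.3 CPM in Con_F, 28.04, 25.3 and 26.3 CPM in PGR_F, 27.2, 29.2 and 27.02 CPM in Con_M and 23.8, 21.7 and 24.3 CPM in PGR_M. Con_F 4 stood apart, well below the other 3 Con_F libraries, and the male groups did not overlap. The averaged log2 fold change of Ndufa7 was -0.23 (SE 0.09, edgeR quasi-likelihood adjusted p = 0.252), and without Con_F 4 Ndufa7 passed the threshold; in females it was -0.32 (SE 0.08) without that library and -0.19 (SE 0.12) with it. Ndufs7, which lies at the ubiquinone site, had -0.13 (SE 0.07). The exception was Ndufa5, an accessory subunit, at 0.04 (SE 0.07).

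In the proximal membrane arm 6 of 8 members were below 0 in the average, with a median of -0.16. Ndufa11, an accessory membrane subunit, was counted at 19.8, 14.9, 19.5 and 16.7 CPM in Con_F, 13.1, 15.7 and 13.03 CPM in PGR_F, 15.7, 15.95 and 17.2 CPM in Con_M and 15.1, 14.2 and 12.6 CPM in PGR_M. The PGR_F libraries were low except for PGR_F 2, which lay between Con_F 2 and Con_F 4, and the male groups did not overlap. The averaged log2 fold change of Ndufa11 was -0.28 (SE 0.08, edgeR quasi-likelihood adjusted p = 0.148), with -0.34 (SE 0.11) in females and -0.22 (SE 0.12) in males. Ndufs5, an accessory subunit on the intermembrane side, was counted at 11.7, 12.4, 11.7 and 10.3 CPM in Con_F, 11.3, 11.1 and 9.94 CPM in PGR_F, 12.1, 11.3 and 11.7 CPM in Con_M and 9.86, 9.81 and 9.61 CPM in PGR_M. All PGR_M libraries were below every other library. Its log2 fold change was -0.26 (SE 0.09) in males and -0.10 (SE 0.09) in females, where it was -0.15 without Con_F 4. Ndufa1, an X-linked subunit, was counted at 2.88, 2.24, 2.56 and 2.22 CPM in Con_F, 1.90, 2.47 and 2.13 CPM in PGR_F, 2.16, 2.39 and 2.74 CPM in Con_M and 2.0037, 2.04 and 1.95 CPM in PGR_M. The male groups of Ndufa1 did not overlap and the female groups did, with log2 fold changes of -0.27 (SE 0.16) and -0.19 (SE 0.15). Ndufa3 at 0.04 (SE 0.07) and Ndufc1 at 0.00 (SE 0.07) were the 2 members of the arm that were not below 0.

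All 10 distal-arm members were below 0 in the average, with a median of -0.18, and 7 of them had an unadjusted p under 0.05 (7.45% of all genes were lower at that p). Ndufb10 was counted at 28.8, 24.2, 26.1 and 24.8 CPM in Con_F, 19.6, 23.6 and 21.4 CPM in PGR_F, 23.5, 26.01 and 25.6 CPM in Con_M and 22.8, 18.3 and 23.7 CPM in PGR_M. All PGR_F libraries were below all Con_F libraries, while in males PGR_M 2 was the lowest value and PGR_M 3 lay just above Con_M 1. The averaged log2 fold change of Ndufb10 was -0.24 (SE 0.07, edgeR quasi-likelihood adjusted p = 0.164), with -0.27 (SE 0.10) in females and -0.21 (SE 0.11) in males. Ndufb4, an accessory subunit, was counted at 18.4, 17.7, 17.8 and 16.9 CPM in Con_F, 17.1, 17.8 and 16.7 CPM in PGR_F, 19.5, 21.1 and 18.6 CPM in Con_M and 16.1, 15.7 and 17.2 CPM in PGR_M. The Con_M libraries were the 3 highest and the female groups overlapped. The log2 fold change of Ndufb4 was -0.27 (SE 0.08, edgeR quasi-likelihood adjusted p = 0.601) in males and -0.04 (SE 0.08) in females.

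Ndufb6, another accessory subunit of the distal arm, was counted at 14.4, 15.3, 14.7 and 11.2 CPM in Con_F, 12.3, 14.2 and 12.1 CPM in PGR_F, 17.2, 16.4 and 14.3 CPM in Con_M and 13.2, 12.7 and 13.1 CPM in PGR_M. Con_M 1 and 2 were high and Con_F 4 was the lowest of all libraries. Its log2 fold change was -0.30 (SE 0.12) in males and -0.11 (SE 0.11) in females, where it was -0.20 without Con_F 4. Ndufb11, the other X-linked member, was counted at 5.72, 4.67, 4.21 and 5.02 CPM in Con_F, 3.56, 4.75 and 4.799 CPM in PGR_F, 4.78, 4.87 and 4.64 CPM in Con_M and 4.23, 3.94 and 5.26 CPM in PGR_M. Its groups overlapped in both sexes, with PGR_F 1 and PGR_M 2 lowest and Con_F 1 highest, and the averaged log2 fold change was -0.13 (SE 0.11). Ndufab1, the mitochondrial acyl carrier protein that is a subunit of complex I and also serves fatty acid synthesis, was counted at 78.3, 78.9, 73.1 and 74.1 CPM in Con_F, 71.3, 77.04 and 72.8 CPM in PGR_F, 82.3, 80.6 and 75.1 CPM in Con_M and 66.8, 68.8 and 74.1 CPM in PGR_M. The male groups did not overlap, with a log2 fold change of -0.18 (SE 0.07), and in females it was -0.05 (SE 0.07).

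Among the 8 assembly factors, 7 were below 0 in the average, with a median of -0.18. The median of the other 37 members was -0.16. Ndufaf4, which acts with Ndufaf3 on the early Q module, was counted at 26.7, 28.9, 26.2 and 24.2 CPM in Con_F, 24.5, 22.9 and 20.7 CPM in PGR_F, 25.1, 25.04 and 25.2 CPM in Con_M and 19.8, 17.3 and 21.4 CPM in PGR_M. The Con_M values were nearly equal and above all PGR_M values, and in females PGR_F 1 lay just above Con_F 4 while the other 2 PGR_F libraries were lower than every Con_F library. Its averaged log2 fold change was -0.29 (SE 0.07, edgeR quasi-likelihood adjusted p = 0.0902), the smallest p of any member, with an interval of -0.43 to -0.16 (2 SE either way). The adjusted p was 0.00879 with DESeq2, 0.104 with limma-voom and 0.0336 with edgeR without Con_F 4, and it ranged from 0.00879 to 0.266 over the alternatives. Within the sexes it was -0.23 (SE 0.09, edgeR quasi-likelihood adjusted p = 0.395) in females and -0.36 (SE 0.10, edgeR quasi-likelihood adjusted p = 0.540) in males.

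Ndufaf5, which hydroxylates an arginine of the subunit Ndufs7, was counted at 22.1, 28.7, 23.4 and 24.5 CPM in Con_F, 24.1, 28.8 and 21.9 CPM in PGR_F, 29.3, 29.8 and 27.2 CPM in Con_M and 20.7, 20.4 and 25.1 CPM in PGR_M. The Con_M libraries were high and all PGR_M libraries lower, while PGR_F 2 and Con_F 2 were both high and the female groups overlapped fully. The log2 fold change of Ndufaf5 was -0.39 (SE 0.12, edgeR quasi-likelihood adjusted p = 0.602) in males and 0.02 (SE 0.11) in females. Ndufaf7, a methyltransferase that modifies an arginine of a Q-module subunit, was counted at 4.37, 5.02, 5.05 and 5.29 CPM in Con_F, 5.40, 5.12 and 4.71 CPM in PGR_F, 4.82, 4.81 and 4.70 CPM in Con_M and 5.27, 5.40 and 6.18 CPM in PGR_M. It was the only member with a positive value in both sexes when all libraries were used (without Con_F 4, Ndufa2 and Ndufaf2 were positive in both as well), and every PGR_M library was above every Con_M library. Its log2 fold change was 0.23 (SE 0.12) in males and 0.04 (SE 0.11) in females. Ndufaf2, which binds a late intermediate in the place later taken by Ndufa12, was counted at 38.4, 40.97, 37.9 and 50.2 CPM in Con_F, 38.7, 43.8 and 39.4 CPM in PGR_F, 43.3, 44.5 and 41.3 CPM in Con_M and 39.9, 42.8 and 50.1 CPM in PGR_M. Con_F 4 and PGR_M 3 were the 2 high libraries and the groups overlapped, with an averaged log2 fold change of -0.00 (SE 0.08) against the -0.24 (SE 0.07) of Ndufa12.

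The last 2 Nduf symbols, Ndufa4 and Ndufa4l2, belong to complex IV, the last enzyme of the chain. Ndufa4, a subunit of complex IV, had an averaged log2 fold change of -0.10 (SE 0.07). Ndufa4l2 was counted at 0.260, 0.350, 0.239 and 0.238 CPM in Con_F, 0.125, 0.184 and 0.221 CPM in PGR_F, 0.233, 0.0855 and 0.218 CPM in Con_M and 0.104, 0.323 and 0.205 CPM in PGR_M. It had 3 to 20 counts per library, so the values of PGR_F, all below those of Con_F, and the wide spread in the male groups rest on few reads. Its log2 fold change was -0.56 (SE 0.41) in females and 0.12 (SE 0.45) in males.

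**Figure D2:**
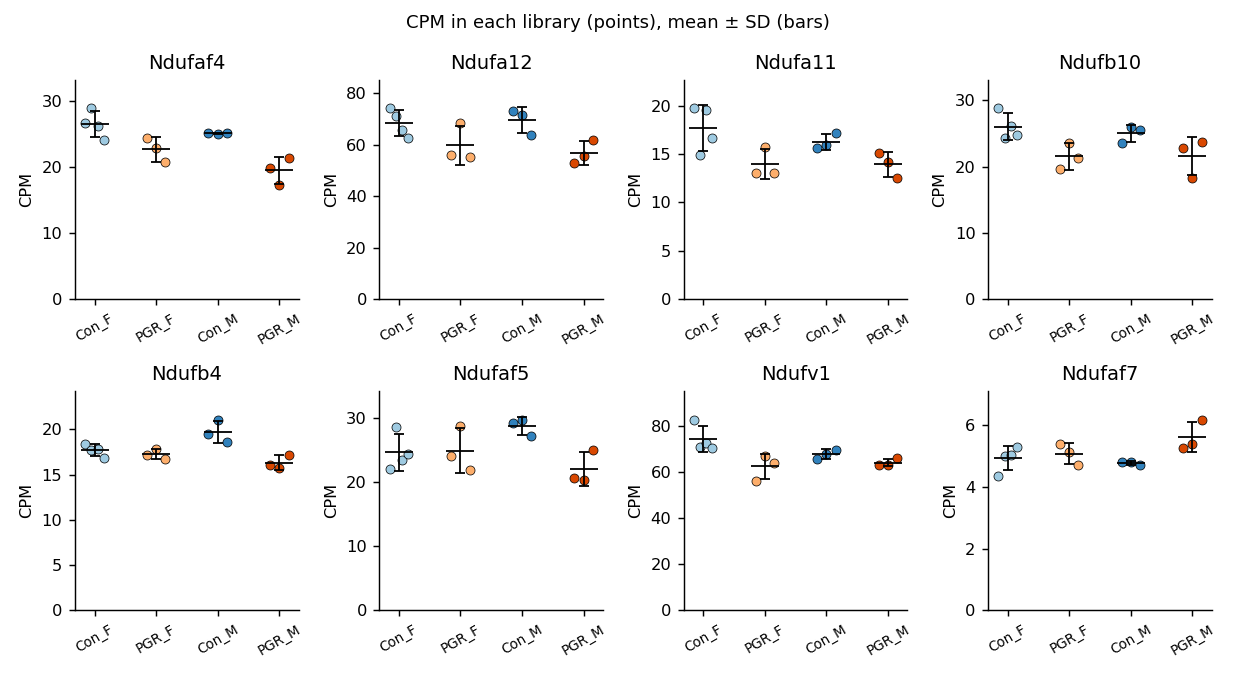
CPM (linear axis from 0) of 8 genes in each library; points are libraries, horizontal lines are group means and bars are SD, with 4 libraries in Con_F and 3 in each other group. Ndufaf4, Ndufa12, Ndufa11, Ndufb4 and Ndufaf5 have male groups that do not overlap, and Ndufv1 and Ndufb10 have female groups that do not overlap. Ndufaf7 is higher in PGR_M (5.27 to 6.18 CPM) than in Con_M (4.70 to 4.82 CPM).

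The promoters of the 4 members with the smallest averaged p are shown. They hold 150 bases before the RefSeq start site and 20 from it on (RefSeq, GRCm38.p6). They are Ndufaf4 (chr4:24897933-24898102, plus strand), Ndufa12 (chr10:94198885-94199054, plus strand), Ndufa11 (chr17:56717612-56717781, plus strand) and Ndufb10 (chr17:24724404-24724573, minus strand). Each reads 5′ to 3′ on the strand of the gene. The counted intervals of these genes are chr4:24898083-24905001 (ENSMUSG00000028261), chr10:94198720-94221443 (ENSMUSG00000020022), chr17:56717767-56722141 (ENSMUSG00000002379) and chr17:24722060-24724478 (ENSMUSG00000040048) in GRCm38. Capitals mark every base within a match, on either strand, to GCGCANGCG, the core of the motif of NRF1, a transcription factor known for binding the promoters of many respiratory chain genes.
Ndufaf4: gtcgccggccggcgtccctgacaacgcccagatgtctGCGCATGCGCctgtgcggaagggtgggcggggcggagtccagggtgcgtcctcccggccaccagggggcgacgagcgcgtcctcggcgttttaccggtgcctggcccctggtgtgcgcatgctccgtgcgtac
Ndufa12: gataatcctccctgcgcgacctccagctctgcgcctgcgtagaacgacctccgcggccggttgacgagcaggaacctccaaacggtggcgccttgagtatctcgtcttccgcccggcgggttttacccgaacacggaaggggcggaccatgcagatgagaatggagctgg
Ndufa11: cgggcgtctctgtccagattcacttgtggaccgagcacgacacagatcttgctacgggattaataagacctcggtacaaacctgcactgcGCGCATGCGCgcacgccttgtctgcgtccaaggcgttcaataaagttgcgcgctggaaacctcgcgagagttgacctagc
Ndufb10: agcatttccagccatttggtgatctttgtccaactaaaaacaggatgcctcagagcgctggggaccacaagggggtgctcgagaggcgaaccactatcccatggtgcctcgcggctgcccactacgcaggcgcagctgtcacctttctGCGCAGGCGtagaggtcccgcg
The stretches of Ndufaf4, Ndufa11 and Ndufb10 hold 1 place with these letters each, and that of Ndufa12 holds none. The stretch of Ndufa12 lies wholly inside its counted interval, and bases before that interval were not searched.

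Promoters of 300 bases (250 before the start and 50 after) were found for 39 members, and among the others were Ndufa2, Ndufa4l2, Ndufaf6, Ndufb9 and Ndufs1. The letters GCGCANGCG were in 10 of the 39 (25.6%), against 6.25% of all 32851 promoters in the table and 12.7% of 11438 promoters of tested genes. Among the 10 were Ndufaf4, Ndufaf5, Ndufa11, Ndufb4 and Ndufb10. AANATGGC, a motif of YY1, was in 13 (33.3%), against 6.05% of all and 8.21% of tested promoters. CCGGAAG, a motif of ETS factors such as GABPA, was in 6 (15.4%), against 8.86% and 16.9%. TCAAGGTCA, a site of estrogen-related receptors, was in 0, against 0.423% and 0.297%, and the shorter AAGGTCA, which it contains, was in 3 (7.69%), against 4.72% and 3.31%. Both strands were searched, and a match is a description of the letters.

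Whether the vector acted differently in the 2 sexes was tested member by member. 33 of 45 members were lower in both sexes (30.6% of all genes), 8 were lower in males alone, 3 in females alone, and 1 was higher in both, Ndufaf7. In 31 members the value was more negative in males, as in 8222 of the 16125 genes tested. In the other 14 (49% of all genes) it was lower in females. That count was 20 without PGR_F 2 (50.8% of all genes) and 9 without PGR_M 3 (50.6%). The difference of the log2 fold changes (females minus males) had a median of 0.09 over members, and 0 of 45 passed the threshold in the edgeR quasi-likelihood test, as did 0% of all genes. DESeq2 called 0 members (0.00621% of 16111 genes with a DESeq2 adjusted p) and limma-voom 0 (0% of all genes). At an unadjusted p under 0.05, 0 members had a negative difference (1.54% of all genes) and 1 a positive one, Ndufaf5 (1.72%), at 0.40 (SE 0.16, edgeR quasi-likelihood adjusted p = 1.00). The next smallest p belonged to Ndufb4 at 0.23 (SE 0.11), Ndufv1 at -0.17 (SE 0.11) and Ndufab1 at 0.14 (SE 0.10). With a library left out, 0 to 2 members had a positive difference at that p. Ndufv1 was at -0.11 without PGR_F 1. Without PGR_F 2, in which 11 members lay below their mean, the median difference was 0.02, and without Con_F 4 it was 0.05. The members lower in males alone were Ndufs1, Ndufs4, Ndufv3, Ndufa3, Ndufa5, Ndufb2, Ndufc1 and Ndufaf5, and of these Ndufaf5 had the largest value in males, -0.39 (SE 0.12), while the other 7 lay between -0.08 and -0.05. Across the 45 members the values in the 2 sexes had a Pearson r of 0.172 and a Spearman rho of 0.358; these are 45 genes measured in the same libraries, not replicates.

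**Figure D3:**
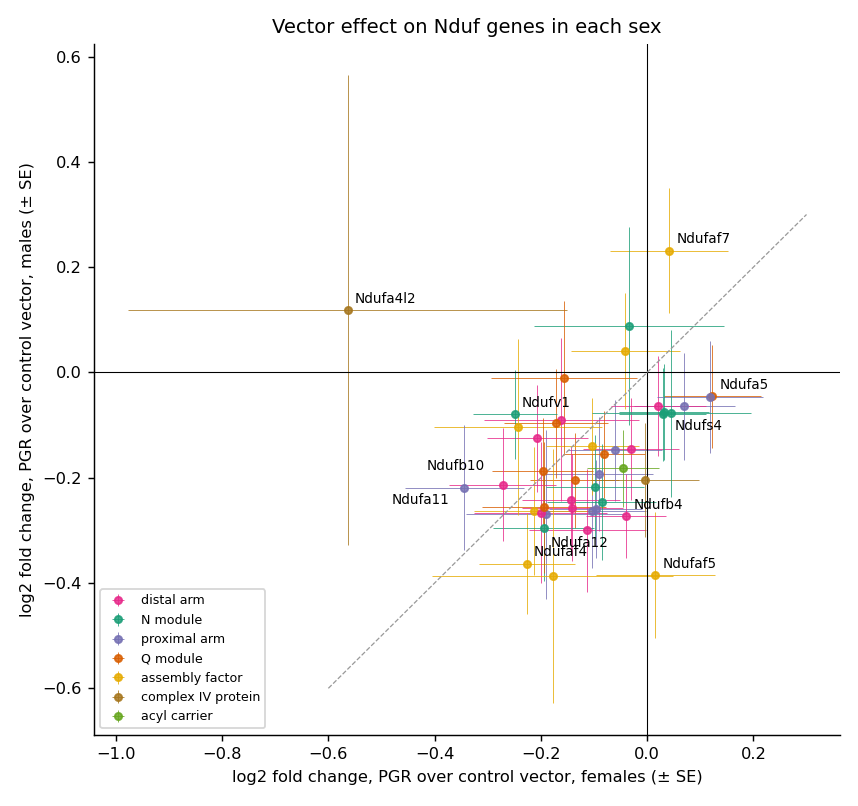
Log2 fold change of each gene under the PGR vector against the control vector in females (x axis) and males (y axis), coloured by role; bars are SE and the dashed line marks equal values. Most points lie below 0 in both sexes, and Ndufaf5 is near 0 in females and at -0.39 in males.

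Between the sexes the members differed little under either vector. Under the control vector 28 of 45 members were lower in females (50% of all genes), with a median log2 ratio of females to males of -0.03, and 0 passed the edgeR quasi-likelihood threshold against 0.229% of all genes. At an unadjusted p under 0.05 there were 0 members lower in females (5.07% of all genes) and 0 higher (7.36%), and DESeq2 (1.51%) and limma-voom (0.236%) called 0. The direction rested on single libraries: without Con_F 4, 18 members were lower in females (49% of all genes) with a median of 0.01, and without Con_F 1, 35 were (51.4%) with a median of -0.06. The smallest p belonged to Ndufb4 at -0.16 (SE 0.07, edgeR quasi-likelihood adjusted p = 0.413), followed by Ndufaf5 at -0.22 (SE 0.11), Ndufb6 at -0.20 (SE 0.11) and Ndufv1 at 0.13 (SE 0.08). Ndufb6 was at -0.11 without Con_F 4 and Ndufv1 at 0.07 without Con_F 1. Every Con_F library was below every Con_M library in 1 member, Ndufb4 (4.94% of all genes), and above in 2, Ndufv1 and Ndufa4l2 (6.41%). Without Con_F 4 these counts were 2, Ndufb4 and Ndufaf2 (10.1%), and 4, Ndufv1, Ndufa4l2, Ndufaf4 and Ndufa7 (11%). Under the PGR vector 15 of 45 were lower in females (46.9% of all genes), the median was 0.04, and 0 passed against 0.143%. Without PGR_F 1, 8 were lower in females (48.9%), and without PGR_F 2, 23 were (49.3%), with a median of -0.00. Here 1 member had an unadjusted p under 0.05, Ndufaf4 (4.11% of all genes were higher at that p and 3.14% lower), at 0.21 (SE 0.10, edgeR quasi-likelihood adjusted p = 0.667), and DESeq2 (0.538%) and limma-voom (0.149%) called 0. Next came Ndufa7 at 0.19 (SE 0.12), Ndufs5 at 0.14 (SE 0.09) and Ndufaf5 at 0.18 (SE 0.12). Ndufaf4 was at 0.13 without PGR_M 2, and Ndufaf5 at 0.06 without PGR_F 2. All PGR_F libraries were above all PGR_M libraries in 2 members, Ndufs5 and Ndufa7 (7.31%), and below in 0 (6.41%). The X-linked members had log2 ratios of 0.04 (SE 0.15) for Ndufa1 and 0.04 (SE 0.15) for Ndufb11 under the control vector, and 0.12 (SE 0.16) and -0.03 (SE 0.15) under the PGR vector. These comparisons share their libraries with the vector comparisons above.

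Members varied together within groups. After each group's mean was subtracted, a member's log2 CPM correlated with the mean of the other members at a median r of 0.559 over the 13 libraries, against 0.0253 for genes outside the list. Highest were Ndufa12 at 0.907, Ndufb5 at 0.898, Ndufs3 at 0.881 and Ndufa9 at 0.869, subunits of all 3 parts of the enzyme. Lowest were Ndufv3 at -0.469 and Ndufaf7 at -0.229. The points share their libraries, so a count of members in one direction is not a count of independent results. The SD of log2 CPM within groups had a median of 0.128 over members, close to the size of the shifts above, and ranged from 0.0644 in Ndufab1 to 0.476 in Ndufa4l2.

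Most members have short intervals, and in these libraries short genes as a class lay lower under the PGR vector. The protein-coding genes compared here are the 11214 with an average log2 CPM of 0 or more, while the members were taken without that limit. Averaged over the sexes, the median of protein-coding genes was -0.04 for intervals under 5 kb, -0.05 from 5 to 10 kb, -0.03 from 10 to 20 kb and 0.01 from 20 kb on. The members' medians in the same ranges were -0.19 (13 members), -0.16 (14), -0.17 (9) and -0.12 (9). In females the medians of protein-coding genes ran from -0.09 under 5 kb to 0.02 from 20 kb on, and those of the members from -0.19 to -0.08. In males the protein-coding medians were between -0.02 and 0.00 and those of the members between -0.21 and -0.10. The members' medians were thus below those of protein-coding genes in the same range, in every range and in both sexes. How far length accounts for the shift was not tested in either sex. Across members the Spearman correlation of interval length with the log2 fold change was 0.415 in females and -0.0501 in males, against 0.207 and 0.0703 over 11214 protein-coding genes.

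**Figure D4:**
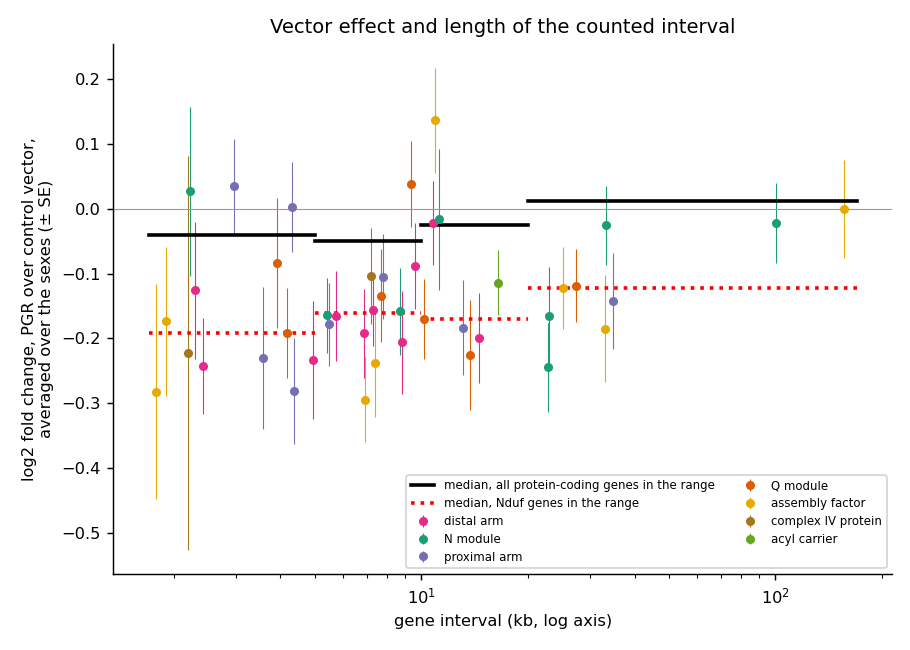
Averaged log2 fold change (PGR vector over control vector) of each gene with its SE against the length of its counted interval in kb (log axis), coloured by role. Solid lines are medians of protein-coding genes with an average log2 CPM of 0 or more, in 4 length ranges. Dotted lines are medians of the Nduf genes, taken without that limit, which lie lower in each range (-0.19 against -0.04 under 5 kb).

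In the rest of complex I and the other complexes, no gene passed the threshold in the averaged comparison by the edgeR quasi-likelihood test. At an unadjusted p under 0.05, 3 of 9 nuclear genes of complex III, 5 of 14 of complex IV, 1 of 8 of complex II, 1 of 15 of ATP synthase, 1 of 11 further assembly factors of complex I and 0 of 5 mitochondrially encoded subunits were lower, and 0 in any of these lists higher, against 22 of 45 Nduf genes and 7.45% of all genes lower. Of the further assembly factors, 7 of 11 were below 0, with a median of -0.07; the 1 at that p was Timmdc1, which helps build the membrane arm, at -0.13 (SE 0.06), and Tmem126b, also of the membrane arm, was at 0.17 (SE 0.08). Of the 7 mitochondrially encoded subunits of complex I 5 could be tested, and their median was 0.14, with mt-Nd5 at 0.22 (SE 0.29) and mt-Nd6 at -0.25 (SE 0.20). Their errors were wide, and the share of mitochondrially encoded counts ran from 0.233% (PGR_M 2) to 0.481% (PGR_M 3) within 1 group. The RNA came from sorted nuclei, and the source of these reads was not tested. All 8 genes of complex II were below 0, with a median of -0.11, and Sdhb, its iron-sulfur subunit, was at -0.15 (SE 0.06) and Sdhaf2, which adds its flavin, at -0.14 (SE 0.07). In complex III 8 of 9 nuclear genes were below 0 (median -0.08), with the core subunit Uqcrc1 at -0.14 (SE 0.06) and the hinge protein Uqcrh at -0.18 (SE 0.08). In complex IV 8 of 14 were (median -0.08), with Cox7a2l at -0.24 (SE 0.08) and Cox6b1 at -0.21 (SE 0.08). Cox4i1 had 0 counts in every library and could not be tested. The source of that 0 was not examined, and it does not measure the expression of Cox4i1. In ATP synthase 13 of 15 were (median -0.06), with Atp5g1, a copy of the rotor-ring gene, at -0.23 (SE 0.08) and Atp5l at -0.11 (SE 0.07). Another gene of this list had 2 rows, and the row with fewer counts was used, at 0.22 (SE 0.13) in females and -0.04 (SE 0.14) in males. Its other row was at -0.04 (SE 0.08) and -0.02 (SE 0.09). The medians of these lists lay between that of the Nduf genes, -0.16, and 0, apart from the mitochondrially encoded one, and differences between lists were not tested.

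Markers of other cell types had values of opposite sign in the 2 sexes for endothelium. All 8 endothelial markers were below 0 in females (median -0.24) and all 8 above 0 in males (median 0.29), and their summed level was 49.5 to 58.2 CPM in Con_F, 34.1 to 58.9 in PGR_F, 27.3 to 45.8 in Con_M and 29.3 to 50.5 in PGR_M. Their median SE was 0.22 in females and 0.24 in males. At an unadjusted p under 0.05 (edgeR quasi-likelihood), 1 was lower in females (5.15% of all genes) and 0 were higher in males (3.53%). For the difference between the sexes, 0 were at that p in either direction (1.54% and 1.72%). Under the control vector all 8 were higher in females than in males, 7 of them at that p (7.36%). Of the 10 cardiomyocyte markers 8 were below 0 in females and 5 in males, with summed levels of 85410 to 96746 CPM in Con_F, 80958 to 88225 in PGR_F, 86792 to 95798 in Con_M and 86045 to 100117 in PGR_M. Of 8 fibroblast markers 5 were below 0 in females and 1 in males, and of 7 tested macrophage markers 3 and 1. Smooth muscle and pericyte markers summed to 300.4 to 338 CPM in Con_F, 314 to 337 in PGR_F, 323 to 338 in Con_M and 305 to 362 in PGR_M. The median over the Nduf genes was below 0 in both sexes, and the part of the cell make-up in it was not tested.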

How the data were processed

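RNA of sorted nuclei was sequenced in 13 libraries of 4 groups. Raw gene-level read counts were deposited by the authors as whole numbers with no normalisation, in a broader table of 55536 genes and in a smaller one restricted to genes averaging 10 or more counts. Ribosomal RNA was depleted and stranded libraries were made, per the labels' protocols, and the builds GRCm38 and mm10 and the tools featureCounts 1.5.0 and STAR 2.5.3a appear in the submitters' processing notes. Per the file headers each gene has an interval whose length is its end minus its start plus 1, so counts include introns and reads of overlapping genes may be lost or shared.

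The broader table was analysed with edgeR 4.0.16 in R 4.3.3: filterByExpr left 16125 genes, libraries were scaled with TMM factors, and 1 robust quasi-likelihood fit over the 13 libraries estimated 4 group means. Benjamini-Hochberg adjustment ran over all genes tested, and an adjusted p under 0.05 counts as passing. CPM values are TMM-scaled, log2 CPM used a prior count of 2, and standard errors were derived from each fold change and its F value. The script was tested on simulated data. Nothing in the labels says which pools came from separate litters, so p-values measure the spread between these libraries. No 2 libraries were identical.

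Values per library are given for members with 1 of the 4 smallest p in a comparison, X-linked members, and the 3 highest and 3 lowest per kb. From each other list at most the 2 genes with the smallest p were named. 1 member is counted in the totals and not reported by name or plotted here. The members and lists were chosen with earlier results of these data known. Alternatives were DESeq2 1.42.0, limma-voom (limma 3.58.1), DESeq2 size factors, no low-count filter, the smaller table, library totals from autosomal genes, a replicate block, the 2 compared groups alone, and each library left out.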

Additional observations from a re-analysis of the deposited data

Results flagged for a closer look

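In the group of 4 control-vector females, 4 of 45 members (8.89%) had 1 library whose gap to the next was large for the range of the group by Dixon's criterion at 95%, which chance alone meets in about 1 in 20 groups. The other groups hold 3 libraries and were not examined this way. Ndufa7 was at 22.3 CPM in Con_F 4 and at 32.9 to 33.3 CPM in the other 3. Ndufv1 was at 82.6 CPM in Con_F 1 and at 70.5 to 72.4 CPM in the others. Ndufa5 was at 38.5 CPM in Con_F 2 against 34.6 to 35.0 CPM, and Ndufa3 was at 9.99 CPM in Con_F 2 against 11.3 to 11.4 CPM.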

How the results depend on the processing

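With each library left out in turn, the median log2 fold change ranged from -0.16 to -0.08 in females, -0.20 to -0.16 in males and -0.18 to -0.13 in the average. The median of the difference between the sexes ranged from 0.02 (without PGR_F 2) to 0.11. The small median sex differences crossed 0: -0.06 to 0.01 under the control vector and -0.00 to 0.06 under the PGR vector, with 18 to 35 and 8 to 23 of 45 members lower in females in turn; with the replicate number as a block the former was 0.01, with 22 members lower. Members past the threshold in the average were 0 in the main analysis, 1 with DESeq2, 1 without the low-count filter (Ndufaf4, edgeR adjusted p = 0.0467) and 0 to 2 with a library left out; the count was 0 under every alternative run in the other 5 comparisons. Over all genes, calls in females were 0, but 81 with DESeq2, 25 without the filter and 0 to 20 with a library left out. In males they were 0, but 29 with DESeq2, 12 without the filter, 1 with the 2 groups alone and 0 to 3 with a library left out. In the average they were 1, but 334 with DESeq2, 2 with limma-voom, 146 without the filter and 1 to 338 with a library left out (338 without Con_F 4, 34 without PGR_F 4). For the difference between the sexes they were 0, but 1 with DESeq2 and 1 without the filter. Under the control vector 37 sex calls became 224 with DESeq2, 131 without the filter, 17 with the 2 groups alone and 14 to 99 with a library left out. Under the PGR vector 23 became 80, 51, 56 and 10 to 44 in the same order. The cause was not tested. With the replicate number as a block, the PGR-vector sex calls were 35, and 4, 15 and 19 members were lower at an unadjusted p under 0.05 in females, males and the average (3.72%, 3.68% and 6.32% of all genes), against 6, 14 and 22 (5.15%, 3.94% and 7.45%). Ndufa7 between the sexes under the PGR vector was then 0.31, against 0.19. Over 16 pairs of same-numbered libraries from different groups, deviations from the group means had r of -0.245 to 0.247, over 0.1 in 3. Pairs with different numbers were not compared, so whether the numbers pair the libraries was not tested. The 2-group setting does not apply to the average and to the difference. Depth limits Ndufa4l2, with 3 to 20 counts per library.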
